A study of Mus musculus with 20 samples.

Results

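The livers described here carried the human form of PPARα (labelled hPPARa) and came from mice that drank either vehicle water or water with perfluorooctanoic acid (PFOA, a persistent fluorinated fatty acid analogue). They were taken by their titles as all libraries of that genotype, 5 with PFOA and 5 with vehicle, 10 of the 20 libraries of the study. The vehicle group held 3 females and 2 males and the PFOA group 2 females and 3 males, so sex was a term of the model. Both groups received 0.5% sucrose in the water and a custom diet with 51.8% of its energy from carbohydrate, 33.5% from fat and 14.7% from protein, and PFOA was given from weaning at 8 µM for 6 to 7 weeks. The mice were labelled as expressing a human PPARa transgene. The sources used here do not give its promoter, the strain or whether the mouse gene is also present. The other 10 libraries were from Ppara knockout mice (labelled KO) on the same water and diet, and are used only beside a few genes named below.

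PPARα is a nuclear receptor of hepatocytes that senses fatty acids and their mimics, pairs with RXR and switches on fatty acid oxidation in peroxisomes and mitochondria. PFOA is known to activate it, and also the xenobiotic receptor CAR. In rodents agonists of either receptor enlarge the liver and push hepatocytes into the cell cycle. Hepatocytes also secrete most plasma proteins, answer to growth hormone, and divide their work between the periportal and the pericentral zone, the latter kept by Wnt signals from endothelial cells. The genes of CAR and PXR, of peroxisomes and of lipid droplets were set aside here, and the text describes the genes beyond them.

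Total counts were 15036240 to 17815566 per library, with 20049 to 24481 genes detected in each. The share of mitochondrially encoded transcripts was 6.62% and 6.89% in the 2 female PFOA libraries and 9.07% to 12.9% in the other 8. The first principal component of log2 CPM (counts scaled to a common library size by TMM factors) held 40.1% of the variance and placed the PFOA libraries between 27.5 and 42.1 and the vehicle libraries between −50.1 and −20.7. The second, with 23.2%, separated the sexes. The labels do not tie the libraries to individual mice. Each p-value therefore reflects the variation among these libraries, part of which may be technical.

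Of 14400 genes tested with edgeR's quasi-likelihood test (Benjamini-Hochberg adjusted p under 0.05), 1847 were higher with PFOA (12.8%) and 1406 lower (9.76%). At least a 2-fold change was seen in 571 higher (3.97%) and 381 lower genes (2.65%). Every PFOA library lay above every vehicle library for 1241 genes (8.62%) and below every one for 823 (5.72%). The median log2 fold change over all genes was −0.013. The shares of 12.8% higher and 9.76% lower are the background for every list count below. The 3253 calls became 1905 without female PFOA replicate 1 and 2070 without female PFOA replicate 2. In bulk tissue, fewer cells of a type and less RNA per cell cannot be told apart, and this holds for every gene below. Log2 fold changes are PFOA minus vehicle and are given with their SE.

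**Figure D1:**
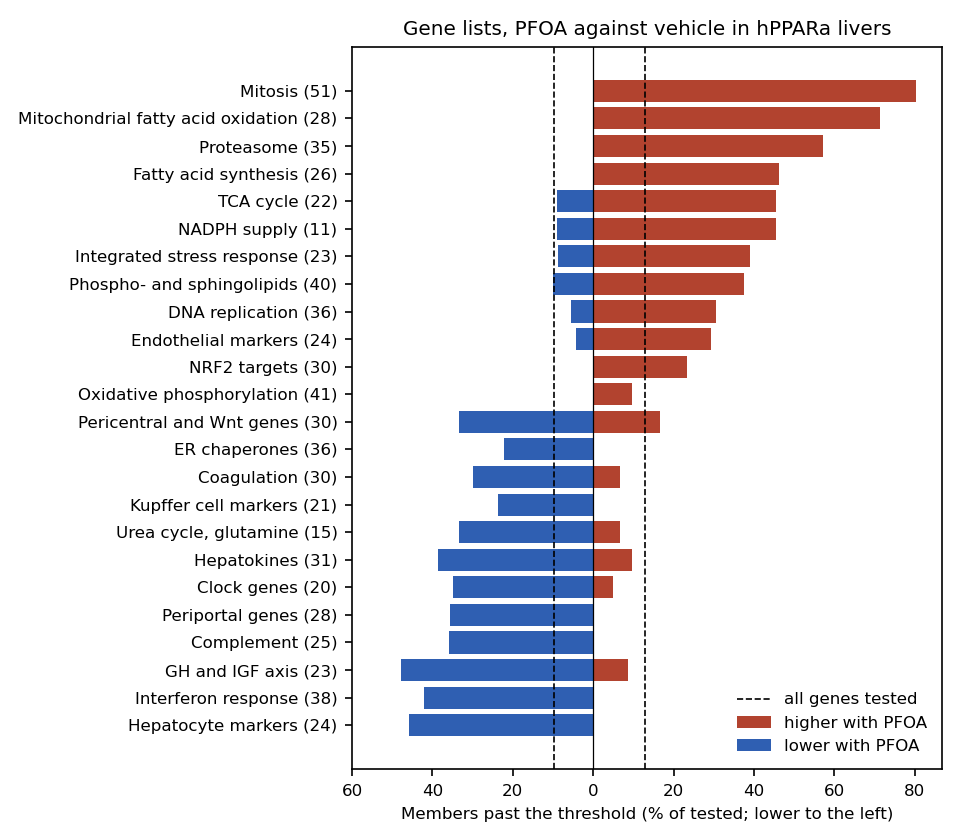
Share of tested members of 24 gene lists that were higher (red, to the right) or lower (blue, to the left) with PFOA in hPPARa livers, in percent of members tested (number in parentheses). Dashed lines mark the shares over all genes tested, 12.8% higher and 9.76% lower. The mitosis list reaches 80.4% to the right, and the hepatocyte marker list 45.8% to the left.

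Of 51 tested members of the list of mitosis and cytokinesis genes 41 were higher and 0 lower, against 12.8% higher over all genes, and 38 of them rose at least 2-fold, against 3.97%. The list's median log2 fold change was 1.81. Every PFOA library lay above every vehicle library in 26 of the 51 genes, against 8.62% of all genes. The 10 members that did not pass the test included Aurka, a spindle pole kinase, and Cenpa, the centromeric histone.

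Cdk1, the kinase that drives entry into mitosis, measured 1.51, 1.81 and 1.63 CPM in the vehicle females and 0.769 and 0.932 in the vehicle males. With PFOA it measured 4.8 and 7.94 CPM in the females and 4.03, 3.93 and 2.49 in the males. All 5 PFOA values were above all 5 vehicle values, a log2 fold change of 1.98 ± 0.22 (adjusted p = 3.49e-05). Cenpf, a kinetochore protein, was near the lower end of detection on vehicle, with 0.181, 0.542 and 0.34 CPM in females and 0.128 and 0.266 in males. It reached 3.09 and 4.92 CPM in the PFOA females and 2.1, 1.9 and 1.07 in the PFOA males (3.33 ± 0.35, adjusted p = 2.43e-05). For each of these genes the highest library was female PFOA replicate 2.

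Top2a, the topoisomerase that untangles sister chromatids, rose from 2.23, 2.47 and 1.84 CPM in vehicle females and 0.769 and 1.2 in vehicle males to 6.95 and 11.7 in PFOA females and 4.39, 4.42 and 3.62 in PFOA males (2.08 ± 0.20, adjusted p = 1.14e-05). The groups did not overlap. Mki67, the proliferation antigen Ki-67, ran from 0.64 to 3.62 CPM on vehicle and from 4.87 to 18.5 CPM with PFOA (1.98 ± 0.31, adjusted p = 0.00108). Cdca3, a trigger of mitotic entry, changed by 1.77 ± 0.21 (adjusted p = 5.36e-05). Ccnb1, the cyclin B partner of Cdk1, rose by 4.28 ± 0.48 from at most 0.121 CPM on vehicle to 0.534 to 2.4 CPM with PFOA. For Ccna2, cyclin A, the groups overlapped (0.533 to 2.41 CPM against 2.03 to 7.1 CPM), and the change of 1.70 ± 0.28 passed the test (adjusted p = 0.00085).

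Promoters of mitotic genes are known for CCAAT boxes, bound by NF-Y, and for the cell cycle homology region, through which the DREAM complex holds them down in resting cells. To show how these letters stand in Cdk1, Top2a, Cdca3 and Cenpf, the 150 bases before the start site are printed, with both motifs in capitals (CCAAT and TTTGAA, searched on both strands, so ATTGG and TTCAAA are the reverse). Mki67, Ccnb1 and Ccna2 are not printed. Sequences and coordinates are those of RefSeq on GRCm38.p6.
Cdk1 (chr10:69352913-69353062, minus strand): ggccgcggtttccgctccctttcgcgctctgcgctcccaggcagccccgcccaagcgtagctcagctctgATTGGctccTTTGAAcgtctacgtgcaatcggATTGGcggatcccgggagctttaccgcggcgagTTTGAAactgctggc
Top2a (chr11:99024190-99024339, minus strand): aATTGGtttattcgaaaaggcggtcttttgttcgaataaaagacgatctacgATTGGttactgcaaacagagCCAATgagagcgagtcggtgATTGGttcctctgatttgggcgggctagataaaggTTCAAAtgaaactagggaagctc
Cdca3 (chr6:124830026-124830175, plus strand): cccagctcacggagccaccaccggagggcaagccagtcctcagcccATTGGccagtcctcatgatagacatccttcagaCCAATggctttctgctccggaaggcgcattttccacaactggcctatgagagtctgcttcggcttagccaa
Cenpf (chr1:189688087-189688236, minus strand): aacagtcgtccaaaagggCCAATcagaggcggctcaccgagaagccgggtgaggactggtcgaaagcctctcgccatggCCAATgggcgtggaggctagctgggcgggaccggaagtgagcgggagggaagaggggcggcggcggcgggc

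All 4 stretches hold at least 2 CCAAT boxes, and those of Cdk1 and Top2a also TTTGAA close to the start. Of the genes not printed, Mki67 had CCAAT beginning at −188, −166 and −141 and TTTGAA at −116 and −98. Ccnb1 had CCAAT at −99 and −67. In the 250 bases before the start, CCAAT was found in 31 of the 43 mitosis genes with a promoter in the table (72.1%) and in 40.3% of the 10786 tested genes with a promoter. TTTGAA was found in 16 of the 43 (37.2%) and in 13.5% of the tested genes. Over all 32851 promoters of the table the shares were 33.8% and 16%. In the printed stretches the 2 motifs share no bases. A match describes letters only.

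Of 36 tested genes of DNA replication 11 were higher and 2 lower, against 12.8% and 9.76% of all genes, with a median of 0.279. The 11 became 7 without female PFOA replicate 1, female vehicle replicate 2 or male vehicle replicate 2, 6 without male vehicle replicate 1 and 5 without female PFOA replicate 2, and the 2 became 1 without any of these 5 libraries or male PFOA replicate 2. Cdc45, part of the replicative helicase, rose from 0.448 to 1.09 CPM on vehicle to 1.19 to 2.33 CPM (1.25 ± 0.28, adjusted p = 0.00653), and its partner Gins2 rose by 2.16 ± 0.42. Chaf1a, which loads histones on new DNA, rose by 1.40 ± 0.29 without overlap, and Lig1, the ligase that joins Okazaki fragments, by 0.71 ± 0.17 with overlap. Tk1, the thymidine kinase of S phase, went the other way. It measured 47.7, 44.4 and 36.8 CPM in vehicle females and 31.3 and 34.7 in vehicle males, and 22.8 and 25.3 in PFOA females and 16, 20.3 and 23.6 in PFOA males (−0.78 ± 0.12, adjusted p = 0.00036), with every PFOA value below every vehicle value.

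Upstream of replication, 7 of 22 genes of G1 control (31.8%) were higher and 2 (9.09%) lower, against 12.8% and 9.76% of all genes. The 7 became 4 without female PFOA replicate 1. The 2 became 1 with the replicate number as a block or without either female PFOA library, female vehicle replicate 1 or either male vehicle library. Ccnd1, the cyclin that carries growth signals into the cell cycle, stood at different levels in the sexes on vehicle. Females had 32.6, 32.6 and 24.8 CPM and males 5.57 and 3.33, and with PFOA females had 53.6 and 53.2 and males 13.3, 21.1 and 12.8. Within each sex every PFOA library was above every vehicle library (1.25 ± 0.23, adjusted p = 0.00382). Ccnd3, another D-type cyclin, rose by 0.55 ± 0.10 and E2f3, a transcription factor of the G1 to S transition, by 0.72 ± 0.17. Mycn fell by 2.86 ± 0.33 from 2.37 to 10.3 CPM on vehicle to 0.421 to 0.894 CPM (adjusted p = 5.36e-05). Its relative Myc measured 7.67, 4.09 and 1.77 CPM in vehicle females, 6.73 and 4.26 in vehicle males, 7.72 and 8.78 in PFOA females and 8.96, 7.92 and 16.3 in PFOA males. These groups did not overlap, but the difference of 0.93 ± 0.35 did not pass the test (adjusted p = 0.0864). It passed with DESeq2 (adjusted p = 0.0163) and without female vehicle replicate 1 (adjusted p = 0.0181).

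In the list of CDK inhibitors and p53 targets 8 of 25 (32%) were higher and 1 (4%) lower, against 12.8% and 9.76% of all genes. The 8 became 5 without female PFOA replicate 1, female vehicle replicate 2, male PFOA replicate 2 or either male vehicle library. Ccng1, a p53 target, ran from 25.3 to 37.9 CPM on vehicle and from 49.3 to 84.8 CPM with PFOA (0.94 ± 0.11, adjusted p = 3.79e-05). Eda2r, a death receptor of the TNF family and a p53 target, rose by 2.16 ± 0.46, and Plk2 by 0.77 ± 0.14. Cdkn1a, the cell cycle inhibitor p21, measured 1.08 to 7.28 CPM on vehicle and 8.49 to 22.3 CPM with PFOA (2.32 ± 0.61, adjusted p = 0.0298), or 3.05 without female vehicle replicate 3. Its call was lost in 8 of 17 alternatives, namely with no filter on low counts and without either female PFOA library, female vehicle replicate 1 or 2, male PFOA replicate 2 or either male vehicle library (adjusted p up to 0.0868). Gadd45g fell by 1.78 ± 0.27.

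Of 26 tested apoptosis genes 5 (19.2%) were higher and 4 (15.4%) lower. Without female PFOA replicate 1 these were 3 and 2, without female PFOA replicate 2 they were 1 and 2, and without male vehicle replicate 1 the 5 became 3. Among the BH3-only killers, Bmf fell from 6.34 to 13.6 CPM to 1.99 to 4.18 CPM (−1.73 ± 0.23, adjusted p = 0.000203) and Bcl2l11 (Bim) fell by 0.69 ± 0.14 with overlapping groups, while Hrk rose by 1.79 ± 0.33.

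**Figure D2:**
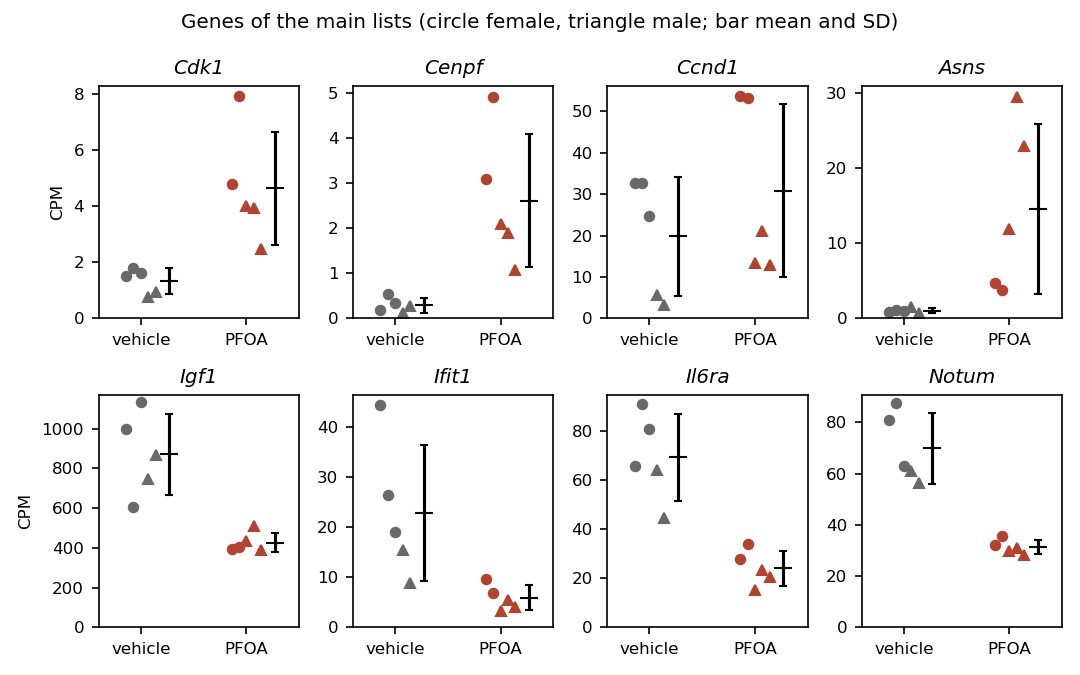
CPM of 8 genes in each hPPARa library, vehicle in grey and PFOA in red, circles for females and triangles for males, with the mean and SD of the 5 libraries (the lower end drawn no lower than 0). Cdk1, Cenpf and Asns lie above, and Igf1, Il6ra and Notum below, the vehicle libraries without overlap. Ccnd1 and Ifit1 overlap between the groups, and for Ccnd1 the overlap is between vehicle females and PFOA males.

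Among receptors for growth signals Egfr and Fgfr4 fell. Egfr, the receptor of EGF, measured 251, 163 and 390 CPM in vehicle females and 467 and 537 in vehicle males, and 102 and 106 in PFOA females and 116, 277 and 186 in PFOA males (−1.37 ± 0.27, adjusted p = 0.00617). Within each sex the PFOA values lay below the vehicle values. Fgfr4, the hepatocyte receptor of intestinal FGF15, fell from 53.8 to 77.6 CPM to 27.8 to 38 CPM (−0.94 ± 0.11, adjusted p = 4.56e-05), and Spry4, a feedback inhibitor of such receptors, fell by 0.89 ± 0.17. Btc, an EGF receptor ligand, rose by 1.04 ± 0.20. In the list of growth factors and their receptors 4 of 28 were lower (14.3%) and 3 higher (10.7%, or 5 genes in the joint fit and with no filter on low counts), shares near those of all genes.

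Of 18 tested YAP targets and pathway genes 4 (22.2%) were higher and 3 (16.7%) lower, against 12.8% and 9.76% of all genes. Ccn2, a classical YAP target, rose by 0.94 ± 0.22, and Amotl2, another target, by 0.54 ± 0.09. The pathway's kinase Lats2 and its scaffold Wwc1 fell by 0.59 ± 0.12 and 0.42 ± 0.09. Peg3, an imprinted gene of the fetal and progenitor list (3 of 14 higher and 1 lower, with 5 higher when low counts were not filtered and 2 lower without male PFOA replicate 1), rose from 7.17 to 36.6 CPM to 113 to 183 CPM (3.03 ± 0.40, adjusted p = 0.00128). Mest, also imprinted, rose by 0.79 ± 0.19.

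Growth hormone acts on the liver through its receptor, JAK2 and STAT5, and its best known output is circulating IGF1. Of 23 tested genes of this axis 11 were lower and 2 higher, against 9.76% and 12.8% of all genes, with a median of −0.519. Without female PFOA replicate 1 they were 7 and 1, and 1 was higher without male vehicle replicate 1 or in the joint fit.

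Igf1 measured 996, 607 and 1131 CPM in vehicle females and 747 and 868 in vehicle males. With PFOA it measured 394 and 406 CPM in the females and 436, 509 and 387 CPM in the males, all below the lowest vehicle value (−1.02 ± 0.16, adjusted p = 0.000603). Igfals, the subunit that keeps IGF1 in the circulation, fell from 129 to 196 CPM to 52.2 to 109 CPM (−1.32 ± 0.18, adjusted p = 0.000287). Socs2, a direct STAT5 target and feedback inhibitor, measured 43.6, 32.5 and 69.6 CPM in vehicle females and 18.7 and 24.5 in vehicle males, and 5.35 and 11.7 in PFOA females and 5.83, 7.62 and 7.25 in PFOA males (−2.08 ± 0.31, adjusted p = 0.00164). Igfbp4, a binding protein, fell by 0.80 ± 0.10 without overlap. Ghr, the receptor itself, fell by 0.52 ± 0.12 (adjusted p = 0.00801), with 536 to 905 CPM against 444 to 589 CPM, which overlap. Esr1, the estrogen receptor, fell in both sexes from different levels, 51.5, 33.5 and 38.8 CPM in vehicle females and 10.3 and 9.19 in vehicle males, to 11.9 and 8.33 CPM in the females and 1.68, 3.99 and 4.93 CPM in the males (−1.78 ± 0.26, adjusted p = 0.000813).

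Of 31 tested genes in the list of secreted liver signals 12 were lower and 3 higher, against 9.76% and 12.8% of all genes, and 16 did not pass. The 3 include Retsat, an enzyme that saturates retinol, described with the retinoid genes below. In 11 of the 31 the libraries did not overlap, with every PFOA library below every vehicle library, against 5.72% of all genes. Enho, which encodes adropin, a peptide linked to glucose and lipid balance, measured 36.1, 32 and 61.2 CPM in vehicle females and 17.1 and 28.2 in vehicle males. It measured 6.29 and 7.66 in PFOA females and 0.902, 1.35 and 2.55 in PFOA males (−3.13 ± 0.35, adjusted p = 0.000351). Ahsg, fetuin-A, fell from 9967 to 17440 CPM to 4692 to 6824 CPM (−1.09 ± 0.12, adjusted p = 3.81e-05). Angptl4, an inhibitor of lipoprotein lipase and a known PPARα target, rose from 72.9 to 136 CPM to 169 to 217 CPM (1.02 ± 0.11, adjusted p = 2.69e-05). It also rose in KO livers, by 1.70 ± 0.24 in the joint fit of both genotypes. Fgf21, the fasting hormone, did not pass the test. It measured 1.27, 0.241 and 2.52 CPM in vehicle females and 0.256 and 0.0666 in vehicle males, and 0.552 and 0.447 in PFOA females and 2.47, 0.983 and 9.27 in PFOA males (1.23 ± 1.38, adjusted p = 0.564), and 1 PFOA male was far above the rest. Without that library, male PFOA replicate 3, the difference was 0.45, without male vehicle replicate 1 or 2 it was 0.44 and 0.36, and over all alternatives it ran from 0.36 to 2.07, none past the threshold.

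**Figure D3:**
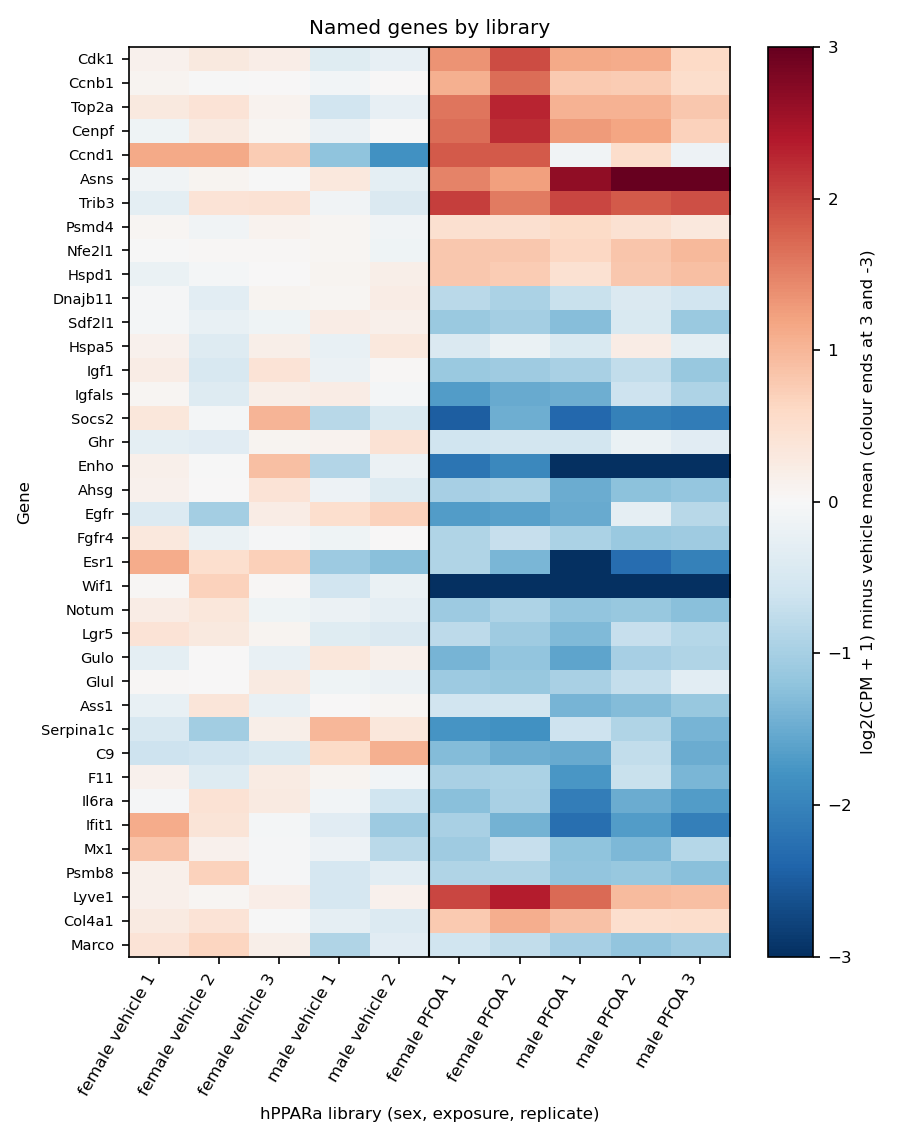
Log2(CPM + 1) of 38 named genes in each of the 10 hPPARa libraries, minus the gene's mean over the vehicle libraries, in colour (red above, blue below, scale ending at 3 and −3). The vertical line divides vehicle from PFOA. Mitotic genes and Asns are red in all 5 PFOA libraries, most for mitotic genes in female replicate 2 and for Asns in the males, and Wif1 is dark blue in all 5.

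The integrated stress response raises amino acid synthesis and transport through ATF4, a factor controlled mainly at translation. Of 23 tested genes of this response 9 were higher and 2 lower, against 12.8% and 9.76% of all genes, with a median of 0.401. The 2 became 1 without either female PFOA library or female vehicle replicate 2 and 4 without male PFOA replicate 3 or with the sexes weighted equally. Asns, asparagine synthetase, measured 0.906, 1.14 and 1.02 CPM in vehicle females and 1.54 and 0.666 in vehicle males. It reached 4.69 and 3.8 CPM in PFOA females and 11.9, 29.6 and 23 in PFOA males (3.20 ± 0.49, adjusted p = 0.00193). Trib3, a pseudokinase induced by ATF4, rose from 7.72 to 14.8 CPM to 33.5 to 48.2 CPM (1.99 ± 0.19, adjusted p = 2.37e-05), and Eif4ebp1, a brake on translation, by 0.55 ± 0.11. Cebpb fell by 0.61 ± 0.12, and for Atf4 itself the difference was −0.18 ± 0.09 (adjusted p = 0.172).

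The Asns promoter is a textbook target of ATF4 through a C/EBP-ATF response element, printed here with the motif TGATGNAAN in capitals (150 bases before the start, RefSeq, GRCm38.p6).
Asns (chr6:7693210-7693359, minus strand): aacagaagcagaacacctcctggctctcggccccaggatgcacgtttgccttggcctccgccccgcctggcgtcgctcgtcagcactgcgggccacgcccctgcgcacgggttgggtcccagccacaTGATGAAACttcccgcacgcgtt

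The element begins 23 bases before the start. Within 250 bases it was found in 5 of 21 genes of the list with a promoter (23.8%) and in 2.56% of the tested genes, or 3.44% of all promoters. Both strands were searched. A match describes letters and not binding.

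Chaperones of the endoplasmic reticulum, where secreted proteins fold, moved the other way. Of 36 tested 8 were lower and 0 higher, with a median of −0.256, and in 8 members every PFOA library lay below every vehicle library, against 5.72% of all genes. The 0 became 1 with DESeq2, 2 without female vehicle replicate 3 and 3 without male PFOA replicate 1. Sdf2l1, a partner of the Hsp40 chaperone Dnajb11, measured 14.5, 12.8 and 13.7 CPM in vehicle females and 17.8 and 16.9 in vehicle males, and 6.45 and 6.88 in PFOA females and 5.65, 10.6 and 6.41 in PFOA males (−1.12 ± 0.15, adjusted p = 0.000186). Dnajb11 fell by 0.76 ± 0.10 (adjusted p = 0.000104). Calr, the glycoprotein chaperone calreticulin, fell from 727 to 946 CPM to 503 to 678 CPM (−0.57 ± 0.11), and Derl2, which helps export misfolded proteins, fell by 0.66 ± 0.13. Hspa5 (BiP), the master chaperone, overlapped between the groups (272 to 447 CPM against 261 to 420 CPM) and did not pass (−0.27 ± 0.16, adjusted p = 0.265).

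Of 35 tested proteasome genes 20 were higher and 0 lower, against 12.8% of all genes, with a median of 0.273 and no change as large as 2-fold. This count depended on the libraries, being 6 without female PFOA replicate 1, 8 without female PFOA replicate 2, 12 without female vehicle replicate 2 or male vehicle replicate 1, 13 without male PFOA replicate 2 and 13 with no filter on low counts. Psmd4, a ubiquitin receptor of the regulatory particle, ran from 86.2 to 100 CPM on vehicle and from 116 to 140 CPM with PFOA (0.47 ± 0.09, adjusted p = 0.00186). Psmd1 and Psmd5 rose by 0.42 ± 0.08 and 0.56 ± 0.10. Nfe2l1 (NRF1), the transcription factor known to drive proteasome genes, was counted among the 35 and the 20 though it is not a subunit. It measured 52.1 to 59.8 CPM on vehicle and 89 to 114 CPM with PFOA (0.83 ± 0.09, adjusted p = 2.69e-05).

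Of 24 other chaperones 4 were higher and 2 lower (2 higher and 1 lower in the joint fit, and 1 lower in 5 more alternatives). The mitochondrial chaperones Hspd1 and Hspa9 rose by 0.75 ± 0.11 and 0.58 ± 0.13, each without overlap. Fkbp5, a cochaperone and a known glucocorticoid target, fell from 60.4 to 121 CPM to 14.4 to 37.4 CPM (−1.70 ± 0.26, adjusted p = 0.00173). Of 30 tested NRF2 targets 7 (23.3%) were higher, against 12.8% of all genes, and 0 lower (12 higher with no filter on low counts). Nqo1, a quinone reductase, rose from 4.33 to 8.31 CPM to 9.89 to 19 CPM (1.42 ± 0.12, adjusted p = 4.59e-06), Gclc, the glutathione-limiting ligase, by 1.12 ± 0.12, and Srxn1 by 1.19 ± 0.09. In autophagy and lysosomes 14 of 42 were higher and 4 lower (9 higher without either female PFOA library). Sqstm1, the autophagy receptor p62, rose by 0.71 ± 0.11 and Hexa, a lysosomal hexosaminidase, by 0.97 ± 0.11, whereas Tfeb, the lysosomal master regulator, fell by 0.62 ± 0.11 and Wipi1, an early autophagy factor, fell by 0.91 ± 0.11.

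Genes of mitochondrial fatty acid oxidation and ketogenesis are textbook targets of PPARα. Of 28 tested 20 were higher and 0 lower, against 12.8% and 9.76% of all genes, with a median of 0.922. In 20 of the 28 every PFOA library lay above every vehicle library, against 8.62% of all genes. Eci1, which handles unsaturated fatty acids, rose from 73.7 to 113 CPM to 264 to 337 CPM (1.81 ± 0.13, adjusted p = 9.56e-07). Slc25a20, the carnitine carrier of the inner membrane, rose by 1.12 ± 0.09, the plasma membrane carnitine transporter Slc22a5 by 1.52 ± 0.12, and the thiolase subunit Hadhb by 1.26 ± 0.12. Eci1, Slc25a20 and Slc22a5 also rose in KO livers, by 1.46 ± 0.13, 1.27 ± 0.10 and 1.24 ± 0.17 in the joint fit of both genotypes. Hadhb did not pass in KO (0.31 ± 0.12, adjusted p = 0.0943).

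The citrate cycle and pyruvate dehydrogenase had 10 of 22 genes higher and 2 lower. The 2 became 1 without either female PFOA library, female vehicle replicate 2 or male vehicle replicate 2, with no filter on low counts or in the joint fit. Idh2, the NADP-dependent mitochondrial isocitrate dehydrogenase, rose by 0.93 ± 0.14 and the succinyl-CoA ligase subunits Suclg1 and Suclg2 by 0.66 ± 0.10 and 0.58 ± 0.08. Idh3a, the NAD-dependent enzyme of the same step as Idh2, fell from 38.7 to 49.2 CPM to 23.3 to 30.6 CPM (−0.68 ± 0.11, adjusted p = 0.000589). Respiratory chain subunits encoded in the nucleus had 4 of 41 higher and 0 lower with a median of −0.0292, near the background. The 4 became 0 without either female PFOA library, ran from 1 to 7 when another library was left out, and 1 gene was lower in 5 alternatives that kept all hPPARa libraries.

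Both sides of pyruvate dehydrogenase control rose. Pdk4, the kinase that shuts it off, measured 3.44, 4.64 and 4.9 CPM in vehicle females and 3.84 and 3.4 in vehicle males, and 14.4 and 17.9 in PFOA females and 50.6, 13.8 and 29.1 in PFOA males (2.48 ± 0.41, adjusted p = 0.00345). Pdp2, the phosphatase that turns it on, rose from 22 to 30.9 CPM to 32.6 to 60 CPM (0.86 ± 0.15, adjusted p = 0.00126).

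Of 35 genes of glycolysis and gluconeogenesis 7 (20%) were lower and 3 (8.57%) higher, against 9.76% and 12.8% of all genes. The 7 became 2 without either female PFOA library and 4 without female vehicle replicate 1 or 2, male PFOA replicate 2 or either male vehicle library. Pklr, liver pyruvate kinase, fell from 181 to 356 CPM to 90.5 to 150 CPM (−1.07 ± 0.17, adjusted p = 0.000821), and Slc37a4, the glucose 6-phosphate transporter, fell by 0.61 ± 0.12. The fructose enzymes Khk and Tkfc fell by 0.78 ± 0.10 and 0.69 ± 0.12, each without overlap. The galactose kinase Galk1 rose by 1.02 ± 0.10 and Gyg, the glycogen primer, by 0.68 ± 0.11. In the list of glycogen, fructose and galactose genes 4 of 23 were higher and 4 lower (17.4% each, against 12.8% and 9.76% of all genes). For NADPH supply 5 of 11 were higher, among them Me1, malic enzyme (1.15 ± 0.19), Pgd (0.61 ± 0.12) and Tkt (0.42 ± 0.08), and 1, Tkfc, was lower (2 without male PFOA replicate 1).

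Of 15 tested genes of the urea cycle and ammonia handling 5 were lower and 1 higher (0 higher without either female PFOA library or male PFOA replicate 3), against 9.76% and 12.8% of all genes, and 9 did not pass. Ass1, which joins citrulline and aspartate, measured 1124, 1681 and 1130 CPM in vehicle females and 1326 and 1369 in vehicle males, and 886 and 889 in PFOA females and 500, 530 and 598 in PFOA males (−0.94 ± 0.16, adjusted p = 0.00105). The PFOA males were the lowest. Asl, the next enzyme, fell by 0.83 ± 0.15 and Arg1, the last, fell by 0.54 ± 0.11. Cps1 and Otc, the steps before them in mitochondria, did not pass, with −0.41 ± 0.19 (adjusted p = 0.14) and −0.22 ± 0.09 (adjusted p = 0.118). Otc passed with DESeq2 (adjusted p = 0.039) and Cps1 with no filter on low counts (adjusted p = 0.00852). Glul, the pericentral glutamine synthetase, fell from 1036 to 1426 CPM to 538 to 946 CPM (−0.85 ± 0.16, adjusted p = 0.00251).

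In the breakdown of glucogenic amino acids 8 of 25 genes were lower and 4 higher. These became 5 lower without female PFOA replicate 2 or male vehicle replicate 1, and 1 and 2 higher without female PFOA replicate 1 or 2. Cdo1, which turns cysteine toward taurine, fell by 0.90 ± 0.13, the proline oxidase Prodh fell by 0.89 ± 0.19 and Shmt1 fell by 0.63 ± 0.14. Amt, of the glycine cleavage system, rose by 0.73 ± 0.10. In the breakdown of branched-chain amino acids and lysine 6 of 24 were higher and 1 lower (14 higher without male PFOA replicate 1), with Mmut, the methylmalonyl-CoA mutase, rising by 0.59 ± 0.13. In methyl and folate metabolism 7 of 32 were higher and 3 lower (3 higher without female PFOA replicate 2, 5 lower without female vehicle replicate 3 and 1 lower without male vehicle replicate 1). Chdh, the choline oxidase that makes betaine, rose from 82.1 to 106 CPM to 158 to 221 CPM (1.07 ± 0.11, adjusted p = 2.62e-05), Odc1, the first enzyme of polyamine synthesis, rose by 0.93 ± 0.17, and Pemt, which makes phosphatidylcholine, fell by 0.60 ± 0.09. Tat, the tyrosine aminotransferase, measured 896 to 2372 CPM on vehicle and 421 to 1469 CPM with PFOA and did not pass (−0.52 ± 0.20, adjusted p = 0.079). It passed with DESeq2 (0.0351), with no filter on low counts (0.000317) and without male PFOA replicate 3 (0.0213).

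Of 26 fatty acid synthesis genes 12 were higher and 0 lower (1 lower with no filter on low counts), against 12.8% and 9.76% of all genes, and 14 did not pass. The list's median was 0.428. Elovl5, a fatty acid elongase, rose from 539 to 838 CPM to 1025 to 1504 CPM (0.97 ± 0.13, adjusted p = 0.000152), Fads2, a desaturase, by 1.02 ± 0.14, Acacb, whose product restrains fatty acid entry into mitochondria, from 46.6 to 76.6 CPM to 80.4 to 154 CPM (adjusted p = 0.000151), and Hsd17b12, of chain elongation, by 0.85 ± 0.12. Of 40 phospholipid and sphingolipid genes 15 were higher and 4 lower (1 lower without female PFOA replicate 1 and 2 without male vehicle replicate 1).

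Smpd3, neutral sphingomyelinase 2, measured 5.68, 5.24 and 9.12 CPM in vehicle females and 7.88 and 10.9 in vehicle males, and 42.4 and 30.6 in PFOA females and 61.8, 46.5 and 51.9 in PFOA males (2.48 ± 0.17, adjusted p = 1e-06). Pla2g6, a phospholipase, rose from 55.1 to 104 CPM to 170 to 260 CPM (1.53 ± 0.11, adjusted p = 1.25e-06). Lpcat3, which puts polyunsaturated chains into phospholipids, rose by 1.05 ± 0.09, and Sgpl1, which breaks down sphingosine 1-phosphate, by 1.16 ± 0.11. In cholesterol synthesis 4 of 26 (15.4%) were higher and 0 lower, against 12.8% and 9.76% of all genes. With the sexes weighted equally or without male vehicle replicate 2, 1 was lower, and with the replicate number as a block 2 were. Among the higher genes were Pmvk (1.02 ± 0.17), Tm7sf2 (0.55 ± 0.12) and Sc5d (0.67 ± 0.12).

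Retsat, which saturates retinol and is a known PPAR target, rose the most of the retinoid genes. It measured 113, 116 and 151 CPM in vehicle females and 224 and 150 in vehicle males, and 1723 and 1439 in PFOA females and 1800, 1796 and 2249 in PFOA males (3.51 ± 0.15, adjusted p = 1e-08). In KO livers Retsat rose by 1.89 ± 0.21 in the joint fit of both genotypes. The retinoid dehydrogenases Rdh16 and Dhrs4 rose by 1.13 ± 0.10 and 1.16 ± 0.09. Hsd11b1, which regenerates active glucocorticoid, fell from 809 to 867 CPM to 382 to 516 CPM (−0.88 ± 0.11, adjusted p = 6.6e-05). In that list of retinoid and steroid genes 7 of 31 were higher and 7 lower.

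Bile acid genes had 7 of 24 lower and 4 higher (4 lower without female PFOA replicate 1 or male vehicle replicate 1). Baat, which conjugates bile acids, fell by 0.71 ± 0.10. Cyp7a1, the limiting enzyme of their synthesis, measured 520, 602 and 656 CPM in vehicle females and 464 and 446 in vehicle males, and 130 and 126 in PFOA females and 15.8, 45.7 and 236 in PFOA males. No values overlapped, the call was marginal (−2.21 ± 0.66, adjusted p = 0.0484) and it was lost in 10 of 17 alternatives, with the sexes weighted equally, with no filter on low counts and without any library other than male PFOA replicates 1 and 3 (adjusted p up to 0.131). Without male PFOA replicate 3 the change was −2.94. Abcb4, the phosphatidylcholine flippase of the bile canaliculus, rose from 127 to 172 CPM to 279 to 311 CPM (0.95 ± 0.10, adjusted p = 2.74e-05). Among apolipoproteins Apoa1 fell from 12150 to 17230 CPM to 7320 to 10860 CPM (−0.73 ± 0.14), Apoc3 fell by 0.73 ± 0.12 and Apof fell by 0.77 ± 0.13. In the lipoprotein list 8 of 29 were lower and 5 higher, the latter with Ces1d, a carboxylesterase (1.05 ± 0.17), whose reads may be shared with close relatives.

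Of 30 pericentral and Wnt target genes 10 were lower and 5 higher, against 9.76% and 12.8% of all genes, the 5 becoming 3 without female PFOA replicate 1 or female vehicle replicate 1 or 2, and 2 without female PFOA replicate 2. Of 28 periportal genes 10 were lower and 0 higher, with 1 or 2 higher in 7 alternatives. Wif1, a secreted inhibitor that binds Wnt proteins, measured 18.2, 29 and 18.2 CPM in vehicle females and 11.5 and 15.3 in vehicle males. With PFOA it measured 0.883 and 0.224 CPM in the females and 0.421, 0.307 and 0.238 CPM in the males (−5.31 ± 0.28, adjusted p = 9.22e-08), so that no PFOA library reached 1 CPM.

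Notum, a Wnt deacylase and target, fell from 56.5 to 87.7 CPM to 28.3 to 35.6 CPM (−1.09 ± 0.10, adjusted p = 9.58e-06), Lgr5, the R-spondin receptor, fell by 1.03 ± 0.20 and Tcf7, a Wnt effector, fell by 0.97 ± 0.13. Axin2, the most widely used Wnt readout, measured 7.35 to 14 CPM on vehicle and 5.84 to 10.8 CPM with PFOA and did not pass (−0.60 ± 0.22, adjusted p = 0.0641), though it passed in 5 of 17 alternatives, with DESeq2, with no filter on low counts and without female vehicle replicate 3, male PFOA replicate 3 or male vehicle replicate 2. Gulo, the last enzyme of vitamin C synthesis, fell by 1.26 ± 0.14, and Cpox, of heme synthesis, rose by 0.79 ± 0.12. Of the periportal genes Pigr, the receptor that carries IgA into bile, fell from 910 to 1293 CPM to 365 to 758 CPM (−0.94 ± 0.17, adjusted p = 0.00216) and Ctsc, a lysosomal protease, fell by 0.85 ± 0.13.

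Of 24 hepatocyte markers, most of them plasma protein genes, 11 were lower and 0 higher, against 9.76% and 12.8% of all genes, and 13 did not pass. The list's median was −0.427, and its summed level was 187000 to 283000 CPM on vehicle and 139000 to 188000 CPM with PFOA. Ttr, which carries thyroxine and retinol, fell from 10600 to 14920 CPM to 5761 to 7009 CPM (−0.91 ± 0.12, adjusted p = 0.000143), and Trf, transferrin, fell by 0.62 ± 0.14. Alb fell by 0.43 ± 0.14 (adjusted p = 0.0453), with overlapping groups (66730 to 143400 CPM against 55780 to 89080 CPM), a call lost in 8 of 17 alternatives, with the replicate number as a block and without either female PFOA library, female vehicle replicate 3, male PFOA replicate 2 or 3 or either male vehicle library (adjusted p up to 0.153). CPM are shares of 1 total, so levels of such abundant transcripts and of others are not independent.

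Complement had 9 of 25 (36%) lower and 0 higher, against 9.76% and 12.8% of all genes. The 9 became 3 without female PFOA replicate 1 and 5 without female PFOA replicate 2, and 1 was higher without male PFOA replicate 1. Coagulation had 9 of 30 (30%) lower and 2 (6.67%) higher. The 9 became 4 without either female PFOA library, 3 without male vehicle replicate 1 and 5 without male vehicle replicate 2 or with the replicate number as a block, and the 2 became 1 without female PFOA replicate 2. C9, part of the membrane attack complex, measured 270, 281 and 306 CPM in vehicle females and 626 and 873 in vehicle males, and 169 and 150 in PFOA females and 145, 251 and 147 in PFOA males (−1.44 ± 0.25, adjusted p = 0.00306). F11, coagulation factor XI, fell by 1.10 ± 0.19 and Klkb1, prekallikrein, fell by 0.63 ± 0.10. In the acute-phase list 2 of 25 (8%) were higher and 3 (12%) lower, against 12.8% and 9.76% of all genes. There were 6 lower with DESeq2, 5 with no filter on low counts, and 1 higher in 7 alternatives. Il6ra, through which hepatocytes answer IL-6, fell from 44.5 to 91 CPM to 15.2 to 33.9 CPM (−1.42 ± 0.14, adjusted p = 2.11e-05). Il1rn, the antagonist of the IL-1 receptor, rose from 1.67 to 5.6 CPM to 15.3 to 29.5 CPM (2.27 ± 0.22, adjusted p = 2.79e-05).

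Of 38 tested interferon response genes 16 were lower, 0 higher and 22 not past the threshold, against 9.76% lower over all genes. The list's median was −0.907, and 9 fell at least 2-fold, against 2.65%. Without either female PFOA library 8 were lower. Ifit1, which binds foreign RNA, measured 44.4, 26.4 and 19.1 CPM in vehicle females and 15.5 and 8.79 in vehicle males, and 9.65 and 6.88 in PFOA females and 3.37, 5.53 and 4.04 in PFOA males (−1.69 ± 0.28, adjusted p = 0.00196). Female vehicle replicate 1 was the highest, and the highest PFOA female lay above the lowest vehicle male. Mx1 and Mx2, antiviral GTPases, fell by 1.53 ± 0.33 and 1.42 ± 0.27, the second without overlap, and Ifi35 fell by 0.86 ± 0.15.

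The 150 bases before the Ifit1 start show the interferon-stimulated response element in capitals (GAAA, any 2 bases, GAAA, searched on both strands and here on the reverse, where it reads TTTC, RefSeq, GRCm38.p6).
Ifit1 (chr19:34640739-34640888, plus strand): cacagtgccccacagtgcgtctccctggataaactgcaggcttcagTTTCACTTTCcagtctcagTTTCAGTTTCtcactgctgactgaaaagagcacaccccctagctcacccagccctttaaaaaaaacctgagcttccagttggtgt

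It holds 2 copies, beginning 104 and 85 bases before the start. In the 250 bases before the start the motif was found in 17 of 29 genes of the list with a promoter (58.6%) and in 3.36% of the tested genes, or 2.98% of all promoters. In antigen presentation 7 of 26 were lower and 0 higher (3 lower without either female PFOA library). Psmb8, an immunoproteasome subunit, fell from 14 to 33.4 CPM to 7.9 to 10.3 CPM (−1.08 ± 0.15, adjusted p = 0.000228), while the constitutive proteasome genes above rose. Among chemokines, Ccl9 rose by 1.39 ± 0.20 and Cxcl12 fell by 0.75 ± 0.14. In that list 3 of 24 (12.5%) were higher and 4 (16.7%) lower, against 12.8% and 9.76% of all genes. The 4 became 2 without either female PFOA library, female vehicle replicate 2 or male vehicle replicate 2.

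Of 21 Kupffer cell and macrophage markers 5 (23.8%) were lower and 0 higher, against 9.76% and 12.8% of all genes. Their summed level was 240 to 626 CPM on vehicle (median 516) and 223 to 510 CPM with PFOA (median 277), with overlapping groups. These sums and medians are not adjusted for sex, and the vehicle group held more females. The marker C1qa measured 56, 67.9 and 50.5 CPM in vehicle females and 22.7 and 31.4 in vehicle males. With PFOA it measured 36.7 and 43.7 CPM in females and 18, 21.3 and 19 in males. The 5 became 2 or 3 without either female PFOA library, female vehicle replicate 2, male vehicle replicate 2 or male PFOA replicate 3 and in the joint fit, and 1 was higher without male PFOA replicate 1 or male vehicle replicate 2. Marco, a scavenger receptor, fell by 1.74 ± 0.33 and the complement subunit C1qa fell by 0.51 ± 0.12, both with overlapping groups. Whether the number of macrophages changed, or bears on the fall of the interferon and antigen presentation genes, was not tested.

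Endothelial markers had 7 of 24 (29.2%) higher, against 12.8% of all genes, and 1 lower (4 higher without female PFOA replicate 2), with summed levels of 626 to 823 CPM on vehicle and 645 to 828 CPM with PFOA. The 1 became 0 without either female PFOA library or male vehicle replicate 1, and 2 without male PFOA replicate 1 or 3 or male vehicle replicate 2, with DESeq2 or with the sexes weighted equally. Lyve1, a hyaluronan receptor of sinusoidal and lymphatic endothelium, measured 3.02, 2.77 and 3.13 CPM in vehicle females and 1.54 and 2.93 in vehicle males, and 13.6 and 17.4 in PFOA females and 10.8, 5.96 and 5.82 in PFOA males (2.10 ± 0.23, adjusted p = 3.79e-05). Col4a1, a basement membrane collagen, rose by 0.87 ± 0.12, and Dcn, decorin, fell by 0.63 ± 0.13, in a list of stellate cell and matrix genes with 6 of 35 higher and 6 lower (3 lower without female PFOA replicate 1). T and NK cell markers (12 tested) and B and plasma cell markers (9 tested) had 0 in either direction, apart from 1 B or plasma marker that was higher with DESeq2, in the joint fit and without male PFOA replicate 3.

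Of 31 tested drug and anion transporters 8 (25.8%) were higher and 5 (16.1%) lower, against 12.8% and 9.76% of all genes. The 5 became 3 without female PFOA replicate 1. Abcg2, an efflux pump of drugs and urate, rose from 22.9 to 73.5 CPM to 77.8 to 160 CPM (1.38 ± 0.13, adjusted p = 9.54e-06), and Slc16a1, the lactate and ketone carrier, by 1.13 ± 0.13. Serpina7, the thyroxine-binding globulin, rose from 2.35 to 9.48 CPM to 28.5 to 64.3 CPM (2.93 ± 0.48, adjusted p = 0.00382). Slc48a1, a heme transporter, rose by 1.12 ± 0.10 and Smad7, a brake on BMP and TGF-β signals, fell by 0.74 ± 0.13. Hamp, the iron hormone hepcidin, did not pass (−0.53 ± 0.22, adjusted p = 0.103). It passed with DESeq2, with no filter on low counts, with the replicate number as a block and without male PFOA replicate 2. In the list of iron and heme genes 7 of 31 (22.6%) were higher and 3 (9.68%) lower. The 7 became 4 without either female PFOA library, and the 3 became 5 with no filter on low counts.

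Ppara itself measured 24.9, 19.8 and 16.7 CPM in vehicle females and 26.6 and 22.6 in vehicle males, and 28.4 and 26.7 in PFOA females and 21.1, 31.9 and 39 in PFOA males. The groups overlapped and the difference of 0.37 ± 0.16 did not pass (adjusted p = 0.107). It passed with no filter on low counts (0.00981) and without male PFOA replicate 1 (0.0112). The counts were assigned to mouse gene symbols, and the sources used here do not tell how reads of the human gene were counted. Nr1i2, the xenobiotic receptor PXR, rose by 0.69 ± 0.09 and Foxa3, a hepatocyte factor, fell by 0.84 ± 0.15. In the list of nuclear receptors and liver transcription factors 12 of 47 (25.5%) were lower and 5 (10.6%) higher, against 9.76% and 12.8% of all genes. The 12 became 3, 4 and 7 without female PFOA replicate 1, female PFOA replicate 2 or male vehicle replicate 1. The 5 became 8 without male PFOA replicate 1. Of 20 clock genes 7 (35%) were lower and 1 (5%) higher. The 7 became 3 without female PFOA replicate 2 and 4 without male vehicle replicate 1, and the 1 ran from 0 without female PFOA replicate 2 to 5 with no filter on low counts. Cry1 fell by 0.97 ± 0.18, the clock output gene Hlf fell by 0.68 ± 0.12 and Per1 fell from 45 to 77.2 CPM to 21.9 to 35.9 CPM (adjusted p = 8.09e-05), the last not past the threshold in the joint fit of both genotypes (adjusted p = 0.0782). No hour of sampling is known from the sources used here.

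The largest fold changes outside the lists set aside belonged to scattered genes. Among those with a mean of at least 1 CPM the highest was Pnliprp1, a lipase relative of the pancreas. It had 0, 0.181 and 0.272 CPM in vehicle females and 0 and 0.133 in vehicle males, and 8.77 and 6.21 in PFOA females and 7.94, 5.59 and 8.43 in PFOA males (5.94 ± 0.40, adjusted p = 6.97e-07). Of 5 tested markers of fat, pancreas, muscle and mesothelium 0 were higher and 1, the elastase Cela1, was lower (−1.36 ± 0.14), their summed level was 19 to 39.4 CPM on vehicle and 9.6 to 16.1 CPM with PFOA, and Amy2a5 and Ins2 had no count in any of the 10 libraries.

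Krt23, a keratin of ductal and stressed liver cells, measured 3.99, 3.07 and 3.27 CPM in vehicle females and 4.93 and 3.13 in vehicle males, and 85.8 and 75.5 in PFOA females and 53.2, 54.7 and 79 in PFOA males (4.26 ± 0.18, adjusted p = 1.49e-08). The 12 other cholangiocyte markers tested summed to 77.9 to 99.8 CPM on vehicle and 73 to 93.7 CPM with PFOA, and 0 of them were higher. S100a8, a calprotectin subunit of neutrophils, rose from 0.121 to 0.272 CPM to 2.83 to 8.42 CPM (4.60 ± 0.41, adjusted p = 8.35e-06). Its partner S100a9 stayed between 0.133 and 0.993 CPM and did not pass (0.65 ± 0.43, adjusted p = 0.294), and the 10 other neutrophil, monocyte and dendritic markers summed to 12.4 to 28.6 CPM on vehicle and 10.2 to 15 CPM with PFOA. Themis, a T cell signalling gene, rose from 0.448 to 0.866 CPM to 5.14 to 31.6 CPM (4.27 ± 0.39, adjusted p = 3.42e-05), highest in the PFOA males, while the T and NK cell markers summed to 6.93 to 16.2 CPM on vehicle and 6.18 to 10.8 CPM with PFOA.

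Esm1, an endothelial proteoglycan, had 3 counts in all 5 vehicle libraries and 188 in the PFOA libraries, a ratio of 57.4 with an exact 95% interval of 19.3 to 281 that covers counting error only. Its fitted change was 5.65 ± 0.81 (adjusted p = 0.000508), 6.29 with the sexes weighted equally and 8.44 without male vehicle replicate 1. Serpinb1a, an inhibitor of neutrophil proteases, rose from 3.14 to 5.99 CPM to 57.2 to 100 CPM (4.06 ± 0.17, adjusted p = 1e-08). Gal3st1, which makes sulfatide, rose by 4.57 ± 0.40, the actin nucleator Spire2 by 4.75 ± 0.46, Serinc2 by 4.05 ± 0.33, Myo15b by 4.16 ± 0.30 and the BMP ligand Bmp8b by 3.79 ± 0.55, all without overlap. Slc35f2, a nucleotide sugar transporter relative, rose by 4.24 ± 0.60, with 0.503 and 1.21 CPM in PFOA females against 4.85 to 8.78 CPM in PFOA males, 4.84 without female vehicle replicate 3 and 3.65 without male vehicle replicate 2.

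**Figure D4:**
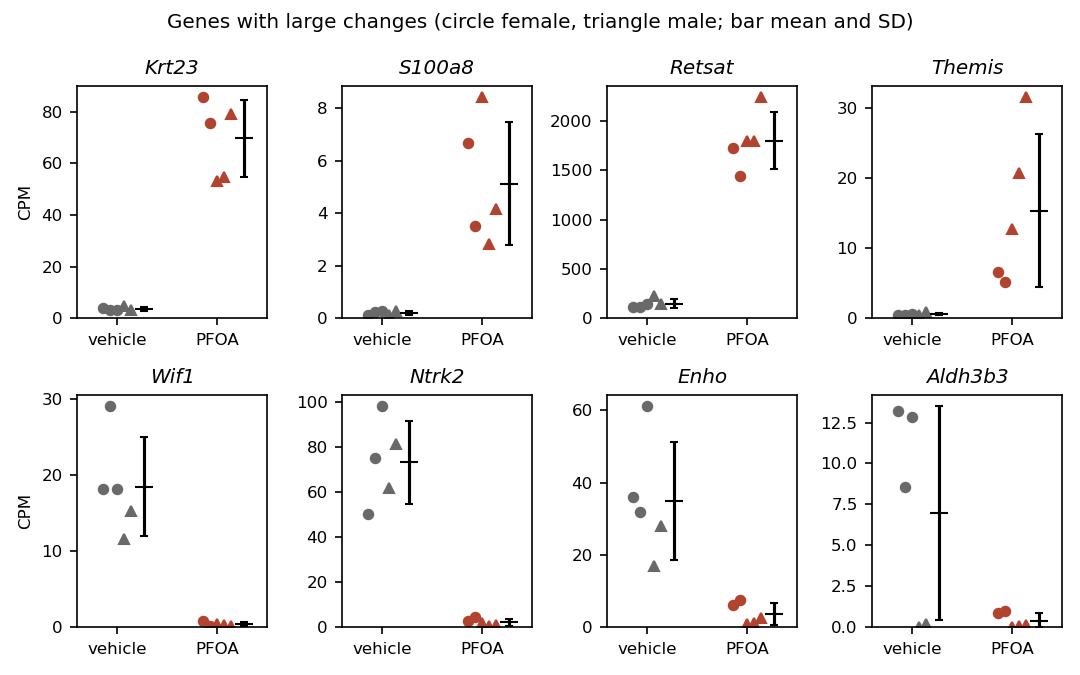
CPM of 8 strongly changed genes in each hPPARa library, vehicle in grey and PFOA in red, circles for females and triangles for males, with the mean and SD of the 5 libraries (the lower end drawn no lower than 0). Krt23, S100a8, Retsat and Themis rise without overlap, and Wif1, Ntrk2 and Enho fall without overlap. Aldh3b3 is near 0 in the vehicle males, so its fall is seen in the females.

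At the other end, Ntrk2, the receptor of brain-derived neurotrophic factor, fell after Wif1 the most. It measured 50.3, 75 and 98.2 CPM in vehicle females and 61.7 and 81.2 in vehicle males, and 2.76 and 4.75 in PFOA females and 1.99, 0.614 and 0.95 in PFOA males (−5.01 ± 0.41, adjusted p = 8.57e-05). Lrtm1, a leucine-rich membrane protein, fell from 43 to 109 CPM to 5.05 to 11.4 CPM (−3.04 ± 0.33, adjusted p = 0.000322). Aldh3b3, an aldehyde dehydrogenase, measured 13.2, 8.55 and 12.9 CPM in vehicle females against 0 and 0.2 in vehicle males (−3.35 ± 0.44, and −2.12 with the sexes weighted equally).

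Of the remaining genes among the 12 lowest, several rested on 1 sex or 1 library. The sulfotransferases Sult2a5, Sult2a6 and Sult3a2 had 0 to 0.0666 CPM in vehicle males, so their falls were read from the females alone. Their calls were lost in 6, 4 and 3 alternatives, among them leaving out female PFOA replicate 1, and their changes were −3.38, −1.55 and −0.75 when the sexes were weighted equally. Without female PFOA replicate 2 the changes were −8.31, −6.27 and −4.74, and without female vehicle replicate 3, the highest library for all of them, −3.18, −3.76 and −2.80. Cux2, a female-biased transcription factor, fell by 3.50 ± 0.87 and lost its call without female PFOA replicate 1 (−2.69) or 2 (−2.97), with the replicate number as a block and with no filter on low counts. Serpina12 had 104 CPM in male vehicle replicate 1 and 0.903 to 14.7 CPM in the other vehicle libraries, and fell by 4.45 ± 0.98, or −3.03 without that library, where the call was lost (adjusted p = 0.0531), as it was without female PFOA replicate 1 (0.0514). Mup19, one of many near-identical major urinary protein genes, fell by 4.54 ± 0.97, with −3.65 and no call without male vehicle replicate 1, and no call without either female PFOA library. Serpina9 fell by 3.32 ± 1.01, a call lost in 10 of 17 alternatives (adjusted p up to 0.165), the 7 libraries whose removal ended it being both female PFOA libraries, female vehicle replicates 1 and 3, male PFOA replicates 1 and 3 and male vehicle replicate 2. It was −4.06 without male PFOA replicate 2.

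Whether the response differed with the receptor was asked in 1 fit of all 20 libraries, for the 24 genes with the largest changes and the 12 genes always reported. The difference between the PFOA effects in hPPARa and KO passed in 176 of 14341 genes (1.23%) and in 6 of these 36. Of the 36, 24 were chosen on the hPPARa effect, which is part of the difference, so this share is not read against the background. Serinc2 rose in hPPARa and measured 0.406 to 6.88 CPM in the KO vehicle livers and 0.112 to 0.932 CPM in the KO PFOA livers, a difference of 6.22 ± 0.81 (adjusted p = 0.00187). Gal3st1 measured 0.126 to 1.2 CPM in KO vehicle livers and 0.213 to 0.504 CPM in KO PFOA livers (5.13 ± 0.81, adjusted p = 0.00408).

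Krt23 and Serpinb1a rose in both genotypes and by a larger fold with the human receptor. In KO livers Krt23 ran from 1.76 to 5.11 CPM on vehicle and 6.62 to 21.7 CPM with PFOA (difference 2.28 ± 0.43, adjusted p = 0.0173), and Serpinb1a from 19.4 to 39.3 CPM to 128 to 313 CPM (1.22 ± 0.23, adjusted p = 0.0141). With PFOA the KO livers held more Serpinb1a than the hPPARa livers did, and so they did on vehicle. Wif1 fell in KO to 2.97 to 11.9 CPM from 16.7 to 32 CPM, less than in hPPARa (−3.63 ± 0.61, adjusted p = 0.0101). Lrtm1 did not pass in KO (−0.46 ± 0.39, adjusted p = 0.462), and the difference was −2.58 ± 0.57 (adjusted p = 0.0399).

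Neither Wif1 nor Serinc2 lost its difference in any of 25 alternatives. It ran from −4.12 to −3.34 for Wif1 and from 4.38 to 6.60 for Serinc2, which had 4.65 without the KO female vehicle library and 4.38 without 3 KO libraries in which transcripts of the other sex were found. These 3 were the only KO female vehicle library, KO female PFOA replicate 2 and KO male PFOA replicate 2. The KO female vehicle level thus rests on a library with transcripts of the other sex. Lrtm1 lost its difference in 12, 11 of them from leaving out 1 library of either genotype. The KO fit had 1 female vehicle library, the highest KO library for Serinc2 and Gal3st1, and without it Gal3st1 (3.08), Krt23 (1.92) and Serpinb1a (1.19) lost the call and the count over all genes was 82. Without those 3 libraries the differences were 2.84 for Gal3st1 and 1.78 for Krt23, both without a call, and the count was 41. It was 74 without female PFOA replicate 1 of hPPARa, and 89 without its replicate 2 or without KO male PFOA replicate 2. For the other 30 genes no difference was detected, Pnliprp1 (6.44 ± 0.60 in KO), Ntrk2 (−6.28 ± 0.53), Enho (−2.54 ± 0.30) and Mki67 (1.99 ± 0.35) among them. This does not show that the responses were alike, and the sign of the difference turned in some alternative for 11 of the 30.

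**Figure D5:**
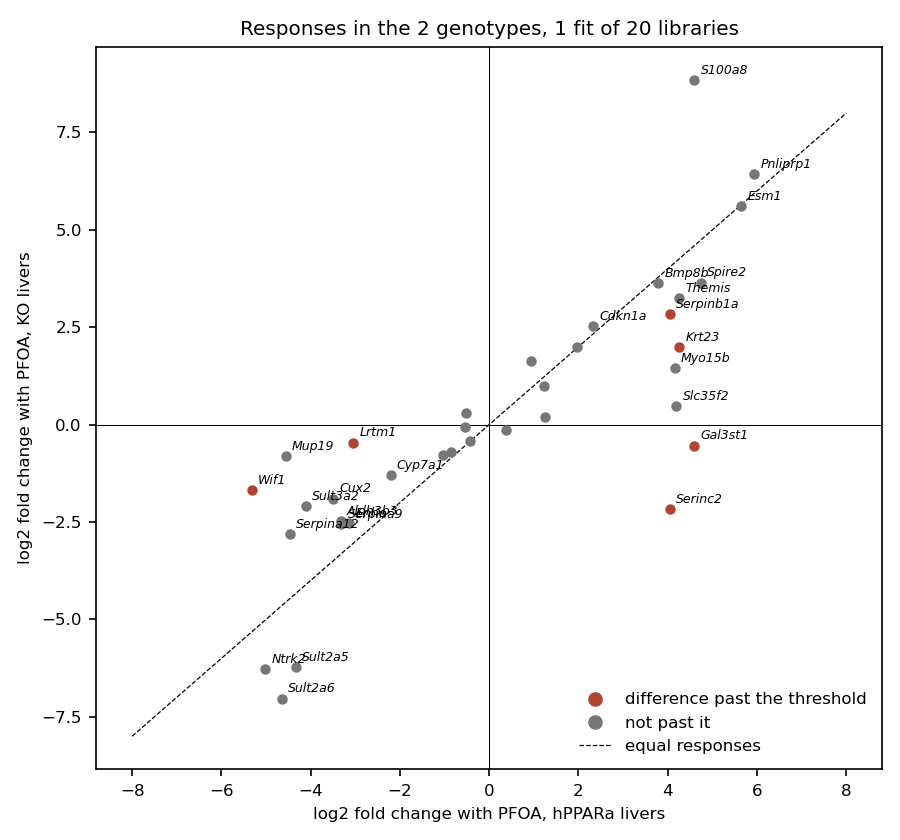
Log2 fold change with PFOA in hPPARa livers (horizontal) and in KO livers (vertical) for 36 genes, both from 1 fit of the 20 libraries. Red points are the 6 genes whose difference passed the test, grey points the other 30, and the dashed line marks equal responses. Serinc2 and Gal3st1 lie far to the right near or below 0 on the vertical axis, and Pnliprp1 and Esm1 lie close to the line.

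A difference of the PFOA effect between the sexes was tested in a model with 4 groups and passed in 15 of 14400 genes (0.104%). The count was 4 without either female PFOA library, 7 without male vehicle replicate 2, 9 without female vehicle replicate 1 and 26 or 27 without female vehicle replicate 3 or male PFOA replicate 2 or 1. Of the 6 named by the smallest adjusted p, 3 moved in the females toward the level of the males. Alas2, the erythroid enzyme that starts heme synthesis, measured 18.6 to 23.9 CPM in vehicle females and 91.7 and 130 CPM in PFOA females, but 170 and 182 CPM in vehicle males and 145 to 222 CPM in PFOA males (male minus female −2.35 ± 0.27, adjusted p = 0.00483). Arsa, a sulfatidase of lysosomes, rose from 8.5 to 9.66 CPM to 33.2 and 44 CPM in females, with 29.5 to 52.3 CPM in all males (−2.12 ± 0.29). F2r, the thrombin receptor, went from 10.4 to 12.7 CPM to 28.2 and 28.4 CPM in females, with 33.4 to 45.1 CPM in males (−1.4 ± 0.19). Evc, a hedgehog pathway gene, fell in males alone, from 8.06 and 8.13 CPM to 2.1 to 2.44 CPM (−1.79 ± 0.26).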

How the data were processed

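Total RNA of whole liver was sequenced at BGI and the authors deposited 1 table of whole-number counts per gene symbol for each genotype. Per the submitters' processing notes the genome build was GRCm39 and the tools were STAR 2.5.3, featureCounts 1.6.1, cutadapt 1.15, FastQC 0.11.5, edgeR 3.36.0 and R 4.1.0, with their roles and whether strand was used not given in the sources used here. Reads of near-identical families (Sult, Mup, Serpina1 and Serpina3, H2, Hamp, Ces1, Cyp2d) and of overlapping or antisense genes may be split by counting, so these values are uncertain.

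From the deposited counts, edgeR 4.0.16 in R 4.3.3 gave TMM factors (0.911 to 1.03), CPM, and quasi-likelihood tests with robust dispersion, with filterByExpr on the 4 groups of sex and exposure and the model sex + exposure. This left 14400 of 53599 symbols, of which 19689 had no count. The SE is the absolute log2 fold change over the square root of F. Tests used an adjusted p under 0.05 (Benjamini-Hochberg over all genes). The edgeR fits for PFOA, its sex difference and hPPARa minus KO were also run on simulated counts with known changes. The DESeq2 fits were not. Alternatives were DESeq2 1.42.0, RLE size factors, no filter, equal weight for the sexes, a block for the replicate number, mitochondrial genes left out before scaling, the joint fit of both genotypes and leaving out each library.

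Named genes had a mean of at least 1 CPM and were outside the CAR and PXR, peroxisomal and droplet lists. They were the 12 highest and 12 lowest fold changes, from each list up to 4 members by adjusted p, the 6 largest gains and losses of CPM, 12 genes always reported and partners of these (S100a9, Ccnb1, Ccna2, Gins2, Ghr, Atf4, Hspa5, Cps1, Otc and Axin2). Which of them the text prints was narrowed after their values were seen. Members and lists were chosen with earlier results of these data known. Lists are described by counts and medians only. The design text writes the dose as 8 µm, read here as micromolar. The reference in use is GRCm38, so coordinates are given only for promoters of its RefSeq table. Results for some items are not reported here.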

Additional observations from a re-analysis of the deposited data

Results flagged for a closer look

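The PFOA effect differed between the sexes, by the test of the difference itself, for 6 named genes. The male minus female differences in log2 fold change were −2.35 for Alas2 (edgeR adjusted p = 0.00483), −2.12 for Arsa and −1.40 for F2r (each 0.0201), −1.79 for Evc and 1.94 for mt-Te, a mitochondrial transfer RNA (each 0.0214), and 5.02 for Slc22a27, a transporter of the organic anion family (0.0241). Alas2, Arsa and F2r rose in females by 2.44, 2.09 and 1.28 and changed in males by 0.08, −0.03 and −0.13. Evc changed by −0.03 in females and −1.82 in males, mt-Te by −0.93 and 1.01, and Slc22a27 by −2.14 and 2.87, from 19.7 to 30.4 CPM in vehicle females against 0.064 and 0.333 CPM in vehicle males. The calls rested on 2 or 3 libraries per group. They were lost in 1 (Alas2, with the replicate number as a block), 4 (Arsa), 3 (F2r), 5 (Evc), 5 (mt-Te) and 6 (Slc22a27) of 14 alternatives, with the signs kept.

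Among the 36 genes asked, the PFOA effect differed between hPPARa and KO livers for 6 in the fit of 20 libraries. The hPPARa minus KO differences were 5.13 for Gal3st1 (edgeR adjusted p = 0.00408), 2.28 for Krt23 (0.0173), 1.22 for Serpinb1a (0.0141), 6.22 for Serinc2 (0.00187), −3.63 for Wif1 (0.0101) and −2.58 for Lrtm1 (0.0399). That fit called 176 of 14341 genes. Some of these are described above but lie outside the 36, such as Retsat (1.61), Hadhb (0.95) and Hrk (−2.19). With 2 or 3 hPPARa libraries in each combination of sex and exposure, no test for a single library far from its group was made.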

How the results depend on the processing

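The 3253 genes called for PFOA ran from 1905 to 3889 when 1 library was left out and from 3029 (replicate number as a block) to 3575 (sexes weighted equally, or no filter on low counts) otherwise. The 15 genes called for the sex difference were 138 with DESeq2, 323 with no filter on low counts and 4 to 27 when 1 library was left out. The 176 called for hPPARa minus KO were 421 with DESeq2, 545 with no filter on low counts, 74 to 239 when 1 library was left out and 41 without 3 KO libraries in which transcripts of the other sex were found. Fewer samples enter a fit that leaves a library out, and the cause of the other shifts was not tested. Of 236 genes named by the rule and past the threshold, 197 held their call in all 17 alternatives and 39 did not. The text describes 213 called genes, a set narrowed after their values were seen, of which 198 held their call and 195 also kept their fold within 1.5 times. Over the genes described, for PFOA and its sex and genotype differences, 3905 values under alternatives kept direction and call, 116 lost the call and 18 gained it. No value past the threshold changed direction. Among genes named by the rule but not past it for PFOA, Slc22a27 (−0.97) ran from −1.41 to 0.37 and mt-Te (0.01) from −0.29 to 0.32, and 11 genotype differences not past it also turned. Of the list counts 1863 stayed within 1.5 times and 245 did not. The 245 include the mitochondrially encoded list in the fit that left those genes out.

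Replicate numbers do not mark shared animals in the labels, so they were not taken as pairs. Deviations of same-numbered vehicle and PFOA libraries of a sex from their group means had correlations of 0.0485, 0.0281, 0.0927 and −0.0156. With 2 or 3 libraries in each group such deviations are tied to each other, so these correlations can neither show nor exclude pairing. With the replicate number as a block 3029 genes were called for PFOA, 18 for the sex difference and 159 for hPPARa minus KO. Depth limits genes near 1 CPM, such as Ccnb1, Cenpf and Esm1, which had few or no counts in the vehicle libraries. Precision for the sex difference is set by the 2 or 3 libraries in each group.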

Other observations

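Genes of tryptophan and NAD metabolism moved both ways, with 5 of 23 (21.7%) higher and 6 (26.1%) lower, against 12.8% and 9.76% of all genes. The 5 became 3 without either female PFOA library, female vehicle replicate 3 or male vehicle replicate 1, and the 6 became 2 without either female PFOA library. Aox1, an aldehyde and nicotinamide oxidase, rose from 24.6 to 65.9 CPM to 87.2 to 124 CPM (1.12 ± 0.14, edgeR adjusted p = 0.000137), and Nnt, which makes NADPH in mitochondria, rose by 0.50 ± 0.11. Ido2, of tryptophan breakdown, fell by 0.79 ± 0.11.

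Transcripts encoded by the mitochondrial genome had 3 of 9 lower and 0 higher. The 3 became 0 without either female PFOA library and 7 without male PFOA replicate 1. They were 5 with DESeq2, with the sexes weighted equally or without male vehicle replicate 1, and 6 with no filter on low counts. The fit that left these transcripts out before scaling did not test them. For mt-Cytb, of respiratory complex III, the change was −0.60 ± 0.16 (edgeR adjusted p = 0.0165), 0.0883 and 0.0754 without female PFOA replicate 1 and 2. The female PFOA libraries had 14200 and 15800 CPM, the PFOA males 25030, 20090 and 19380, the vehicle females 29850, 26070 and 31410 and the vehicle males 22570 and 28340. Nuclear genes of mitochondrial translation and import had 8 of 39 higher and 0 lower (2 higher without female PFOA replicate 1, 3 without female PFOA replicate 2, 4 without male PFOA replicate 3 and 5 without any vehicle library but male replicate 1).

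Among regulators of amine and one-carbon pathways, Mat2a, the inducible methionine adenosyltransferase, rose by 0.49 ± 0.09, Bckdk, which restrains branched-chain amino acid oxidation, rose by 0.53 ± 0.11, and Bcat2, the mitochondrial branched-chain aminotransferase, fell by 0.51 ± 0.12. Il18, a cytokine of the IL-1 family, fell from 16.1 to 22.9 CPM to 11.2 to 15 CPM (−0.66 ± 0.10, edgeR adjusted p = 0.000546).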
